A study of Homo sapiens with 12 samples.

Results

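The proteasome subunit genes examined here were the protein-coding genes whose symbol is PSMA, PSMB, PSMC, PSMD, PSME, PSMF or PSMG followed by a number, which gave 47 genes of the 57820 in the deposited tables. Another 53 genes with PSM-like symbols, among them pseudogenes and antisense genes, were left out by that rule. No identifier was matched to PSMB3, the remaining constitutive beta subunit, which was not analysed here. RNA sequencing was carried out in G401, a human malignant rhabdoid tumour line without SMARCB1, which is a shared subunit of canonical SWI/SNF chromatin remodellers. All 4 groups carried the genotype SMARCB1(-/-) and were induced with doxycycline, either to make GFP as the control protein or to make SMARCB1. Cells of both kinds were treated for 24 h with DMSO, the solvent control, or with dBRD9-A, a degrader of BRD9, which belongs to the SWI/SNF form called non-canonical BAF, and each of the 4 groups had 3 libraries. The series asks how SWI/SNF complexes with and without SMARCB1 relate to the need of these cells for BRD9. All results come from 1 cell line, and the length of the induction, and whether the lines were clones, are not given in the sources used here. The labels do not say that replicates were separate cultures, so p-values measure the spread between these libraries, which may be technical.

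The proteasome is the main machine that breaks down ubiquitin-tagged proteins in the cytosol and nucleus. Its barrel-shaped core particle stacks rings of alpha subunits (PSMA genes), which gate the entrance, around rings of beta subunits (PSMB genes), some of which cut peptide bonds. A regulatory particle caps the barrel. Its base holds a ring of ATPases (PSMC genes) that unfold substrates, and its lid (PSMD genes) removes ubiquitin. In immune cells and after interferon, the catalytic subunits PSMB6, PSMB7 and PSMB5 are replaced by PSMB9, PSMB10 and PSMB8 to form the immunoproteasome, which favours peptides for display on MHC class I. Transcription of many proteasome genes is raised together by NFE2L1 (NRF1) when proteasome activity is short. A degrader such as dBRD9-A works by bringing its target to a ubiquitin ligase, after which the proteasome destroys the target.

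Libraries held 34.97 to 58.54 megacounts assigned to genes. Levels are CPM, counts per megacount of library size after TMM scaling, which equalises the bulk of genes between libraries, and ± is the SD over the 3 libraries of a group. The targeted gene matched the labels: SMARCB1 had 0 to 2 counts in the 6 GFP libraries and 53033 to 110893 counts in the 6 SMARCB1 libraries. VIM, a mesenchymal marker expressed by rhabdoid cells, was at 1318 CPM in GFP cells under DMSO and 2310 CPM in SMARCB1 cells under DMSO. Among markers of haematopoietic cells, which carry immunoproteasomes, PTPRC and CD3E had 0 counts in every library, LYZ at most 1, CD14 at most 3 and ITGAM 1 to 10. Endothelial and fibroblast markers did move with SMARCB1: VWF went from 1 to 5 counts to 22 to 50 in DMSO, THY1 from 2 to 10 counts to 54 to 99, CDH5 from 0 to between 3 and 10, COL1A1 from 257 to 95.2 CPM, and PDGFRB was at 75.5 and 84.3 CPM. Their part in the proteasome results was not tested. In bulk RNA, fewer cells expressing a gene and less of its RNA per cell cannot be told apart.

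Of the 47 proteasome genes, 44 passed the filter on low counts and were tested. PSMA8, the alpha subunit of the testis proteasome, had 0 to 1 counts per library, and PSMB11, the beta subunit of the thymus proteasome, had 0 to 2. PSMB8, the chymotrypsin-like subunit of the immunoproteasome, was the other gene not tested: it had 4 to 9 counts per library in GFP cells under DMSO, 2 to 11 in GFP cells given dBRD9-A, 1 to 5 in SMARCB1 cells under DMSO and 3 to 6 in SMARCB1 cells given dBRD9-A. These ranges overlap in all 4 groups, and several libraries lie at or near the floor of 3 counts, so no change in PSMB8 was detectable at this depth.

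The promoters of PSMB9, the proteasome gene that changed most, and of its neighbour TAP1 are shown first. PSMB9 and TAP1, a subunit of the transporter that carries peptides to MHC class I, lie head to head on chromosome 6, and both were lower in SMARCB1 cells. Each run is a stretch of 250 bases from RefSeq on GRCh38.p14, written 5′ to 3′ on the gene's own strand and ending just before its annotated start. For TAP1 the upstream of its annotated starts was used. Capitals mark matches, on either strand, to 3 motifs: GAAANNGAA (an interferon regulatory factor element), TGACNNNGC (the antioxidant response element core, which NRF1 binds) and CCAAT (the CCAAT box). PSMB9 is shown at chr6:32853942-32854191 (plus strand) and TAP1 at chr6:32853705-32853954 (minus strand), so that the first 13 bases of each run are the same bases read on opposite strands and hold the same CCAAT box.
PSMB9: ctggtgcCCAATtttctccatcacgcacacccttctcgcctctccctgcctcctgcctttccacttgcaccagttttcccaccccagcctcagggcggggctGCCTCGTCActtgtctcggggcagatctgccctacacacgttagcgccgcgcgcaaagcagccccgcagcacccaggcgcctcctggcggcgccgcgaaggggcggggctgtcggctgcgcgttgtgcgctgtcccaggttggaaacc
TAP1: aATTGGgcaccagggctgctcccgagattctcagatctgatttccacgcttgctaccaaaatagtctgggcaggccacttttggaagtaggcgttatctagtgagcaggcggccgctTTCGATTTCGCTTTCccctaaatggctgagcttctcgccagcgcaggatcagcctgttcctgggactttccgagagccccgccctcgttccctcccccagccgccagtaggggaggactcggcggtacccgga

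The TAP1 run held 2 overlapping GAAANNGAA matches and the PSMB9 run held none. Together the runs cover the stretch between both starts, so these matches also lie upstream of PSMB9, beyond the bases shown for it. With TMM scaling 22 of the 44 tested proteasome genes were called lower in SMARCB1 cells under DMSO, among them PSMB10, PSME2 and PSMG4. Scaled to the ERCC spike-in RNAs instead, these 3 were not called there (log2 fold changes -0.033, -0.11 and -0.088). All 3 had the identical match GAAAGCGAA close to the start. The same bases stood on the opposite strand at PSME1, not called in DMSO, and at PSMB8, not tested. The first 3 are shown over 60 bases around it, with the match in capitals: PSMB10 at chr16:67936851-67936910 (minus strand), PSME2 at chr14:24146611-24146670 (minus strand) and PSMG4 at chr6:3258887-3258946 (plus strand).
PSMB10: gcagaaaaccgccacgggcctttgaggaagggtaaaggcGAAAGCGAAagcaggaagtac
PSME2: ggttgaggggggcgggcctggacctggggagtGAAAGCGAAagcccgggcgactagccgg
PSMG4: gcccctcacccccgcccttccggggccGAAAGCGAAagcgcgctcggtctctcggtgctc

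Promoter windows, from 250 bases before to 50 after the start, were given for 41 of the 47 proteasome genes, in 50 windows. PSMG3 was among the 6 without one. GAAANNGAA was found in 8 of those 50 windows (16%) and in 8.11% of all 35116 windows. The other 5 windows with it belonged to PSMA4, PSMB4, PSMB8, PSMC2 and PSME1. TGACNNNGC was found in 14 windows (28%, against 13.35% of all windows) and CCAAT in 19 (38%, against 34.61%). A match describes these letters and is not evidence of binding.

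Among catalytic and structural subunits of the core, the alpha and constitutive beta subunits had the highest levels per length. Per kilobase of median transcript length, GFP cells under DMSO had 379 CPM per kb of PSMB4, 336 of PSMB1 and 315 of PSMA4. In SMARCB1 cells under DMSO PSMB4 was again first with 359 CPM per kb and PSMA7 second with 327. PSMB2 and PSMA5 stood lower per length, at 50.4 and 71.9 CPM per kb in GFP cells under DMSO. Their median annotated lengths, 3459 and 2616.5 bases, each come from 2 transcripts, and which transcript was expressed was not tested. Before division by length they had 174 and 188 CPM there, beside 200 CPM of PSMB7 and 155 CPM of PSMA3. The immunoproteasome subunits stood near the bottom: PSMB10 had 21.9 and PSMB9 13.8 CPM per kb in GFP cells under DMSO, and of the tested genes only PSME4 (8.21) was lower. Summed over all 47 genes, the level was 7660 ± 139 CPM in GFP cells under DMSO, 7736 ± 112 with dBRD9-A, 7340 ± 70.7 in SMARCB1 cells under DMSO and 7412 ± 68.9 with dBRD9-A (SD, n = 3). The sum in SMARCB1 cells thus differed from that in GFP cells by -4.18% in DMSO and by -4.19% with dBRD9-A.

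With SMARCB1 restored in DMSO, proteasome genes were called about as often as genes at large, but less often than genes in their range of level. With TMM scaling most of the proteasome genes called were slightly lower. At an adjusted p under 0.05 (edgeR's quasi-likelihood test, Benjamini-Hochberg over all 15750 genes tested), 28 of the 44 genes were called (63.6%), against 65% of all genes tested. Of the 9154 tested genes with a mean level in the same range (8.37 to 405 CPM), 74.7% were called. Of the 28 proteasome genes, 22 were lower (31.6% of all genes tested were called lower) and 6 were higher (33.5% of all genes tested). The median log2 fold change was -0.076 for the proteasome genes and -0.0047 for all genes tested. Changes were small: the median absolute log2 fold change was 0.088, against 0.28 over all genes tested and 0.22 over the 9154 tested genes with a mean level in the same range of CPM. Those 9154 genes were not matched to the proteasome genes by level within that range, and the part of level in these sizes was not tested. Only PSMB9 and PSMG3 changed by at least 0.5 on the log2 scale (4.55% of the tested proteasome genes, 31.0% of all genes tested). The counts of directions hold relative to the bulk of genes. Scaled to the ERCC spike-in RNAs instead, which moved the median of all genes by 0.17 in this comparison, 16 proteasome genes were called higher (43.4% of all genes) and 3 lower (16.4% of all genes). The 3 called lower on both scales were PSMB9, PSMC4 and PSMG3, and the 6 called higher with TMM were called higher on both. PSMA1, PSMA4, PSMB1, PSMB2, PSMB4, PSMB7, PSMC1, PSMD4, PSMD13 and PSME3, each called lower with TMM, had values from 0.0058 to 0.096 on the spike-in scale. In all, 19 of the 22 genes called lower with TMM, among them PSMB5 (-0.0018) and PSMB10 (-0.033), were not called on the spike-in scale, so those falls in DMSO hold only relative to the bulk of genes.

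**Figure D1:**
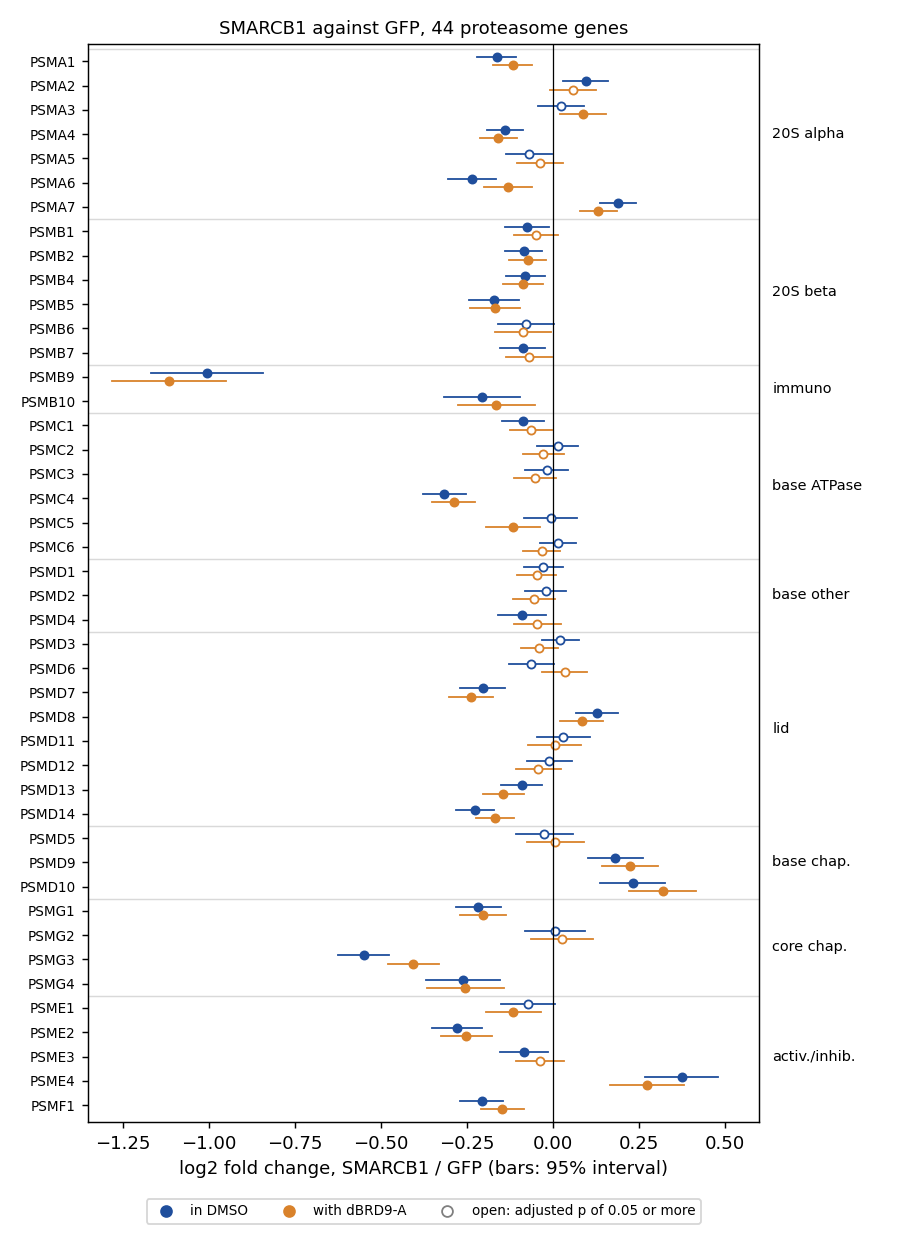
Log2 fold change of SMARCB1 against GFP cells (horizontal axis) for the 44 tested proteasome genes (rows, grouped by role), in DMSO (blue) and with dBRD9-A (orange); bars are 95% intervals and filled points have an adjusted p under 0.05. PSMB9 lies far to the left of the other genes in both comparisons, at -1.01 and -1.12.

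PSMB9, the caspase-like site's immunoproteasome counterpart of PSMB6, changed most. Its level was 11.7, 9.92 and 10.9 CPM in GFP cells under DMSO, 11.6, 12.3 and 11.5 CPM in GFP cells given dBRD9-A, 5.16, 5.24 and 5.78 CPM in SMARCB1 cells under DMSO, and 5.49, 5.72 and 5.07 CPM in SMARCB1 cells given dBRD9-A. Every SMARCB1 library lay far below every GFP library, whether or not dBRD9-A was present. PSMB9 fell by 1.01 on the log2 scale in DMSO (SE 0.08, adjusted p = 2.82e-09) and by 1.12 with dBRD9-A (SE 0.08, adjusted p = 9.15e-10). On the spike-in scale the log2 fold changes were -0.83 and -1.44. These rest on 197 to 660 counts per library, fewer than for any other tested proteasome gene.

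PSMB10, the trypsin-like immunoproteasome subunit that replaces PSMB7, was at 25.9, 25.5 and 28.6 CPM in GFP cells under DMSO and 23.6, 23.7 and 22.3 CPM in SMARCB1 cells under DMSO. With dBRD9-A the levels were 25.3, 25.2 and 25.5 CPM in GFP cells and 21.7, 24.1 and 22.0 CPM in SMARCB1 cells. The SMARCB1 libraries were lower without overlap in both comparisons, by a small margin. PSMB10 fell by 0.21 on the log2 scale in DMSO (SE 0.05, adjusted p = 0.0021) and by 0.16 with dBRD9-A (SE 0.05, adjusted p = 0.0129). The second call was lost without SMARCB1 dBRD9-A replicate 1 (log2 fold change -0.14, adjusted p = 0.0508).

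Of the constitutive counterparts, PSMB5 was called in both comparisons, PSMB7 in DMSO only and PSMB6 in neither. PSMB5, the chymotrypsin-like subunit and the main target of proteasome inhibitor drugs, was at 293, 282 and 300 CPM in GFP cells under DMSO, 297, 321 and 291 CPM in GFP cells given dBRD9-A, 266, 256 and 255 CPM in SMARCB1 cells under DMSO and 266, 272 and 272 CPM in SMARCB1 cells given dBRD9-A. It was lower in the SMARCB1 libraries without overlap, by 0.17 on the log2 scale in both comparisons (SE 0.04, adjusted p = 0.000323 in DMSO and 0.000413 with dBRD9-A), but on the spike-in scale its value in DMSO was -0.0018 (adjusted p = 0.985). PSMB7, the constitutive trypsin-like subunit, was at 204, 192 and 204 CPM in GFP cells under DMSO, 203, 206 and 198 CPM in GFP cells given dBRD9-A, 189, 191 and 184 CPM in SMARCB1 cells under DMSO and 199, 192 and 188 CPM in SMARCB1 cells given dBRD9-A. It fell by 0.09 in DMSO (SE 0.03, adjusted p = 0.0212), while with dBRD9-A the libraries overlapped and the log2 fold change was -0.07 (adjusted p = 0.0635). PSMB6, the constitutive caspase-like subunit, was at 208, 191 and 213 CPM in GFP cells under DMSO, 219, 221 and 206 CPM in GFP cells given dBRD9-A, 200, 188 and 192 CPM in SMARCB1 cells under DMSO and 206, 203 and 201 CPM in SMARCB1 cells given dBRD9-A. Its groups overlapped in DMSO but not with dBRD9-A, and the log2 fold changes, -0.08 and -0.09, did not pass the test (adjusted p = 0.0838 and 0.0623).

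Set against each other per length, PSMB9 was 5.82% ± 0.295 of PSMB6 in GFP cells under DMSO and 3.05% ± 0.232 in SMARCB1 cells under DMSO (SD, n = 3). With dBRD9-A the shares were 6.0% ± 0.178 and 2.93% ± 0.160. PSMB10 was 10.7% ± 0.541 of PSMB7 in GFP cells under DMSO and 9.91% ± 0.172 in SMARCB1 cells under DMSO. PSMB8 was 0.0385% ± 0.00785 of PSMB5 in GFP cells under DMSO. So the immunoproteasome transcripts were a minority beside their constitutive partners in all 4 groups, and of these ratios PSMB9 to PSMB6 differed most between GFP and SMARCB1 cells.

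**Figure D2:**
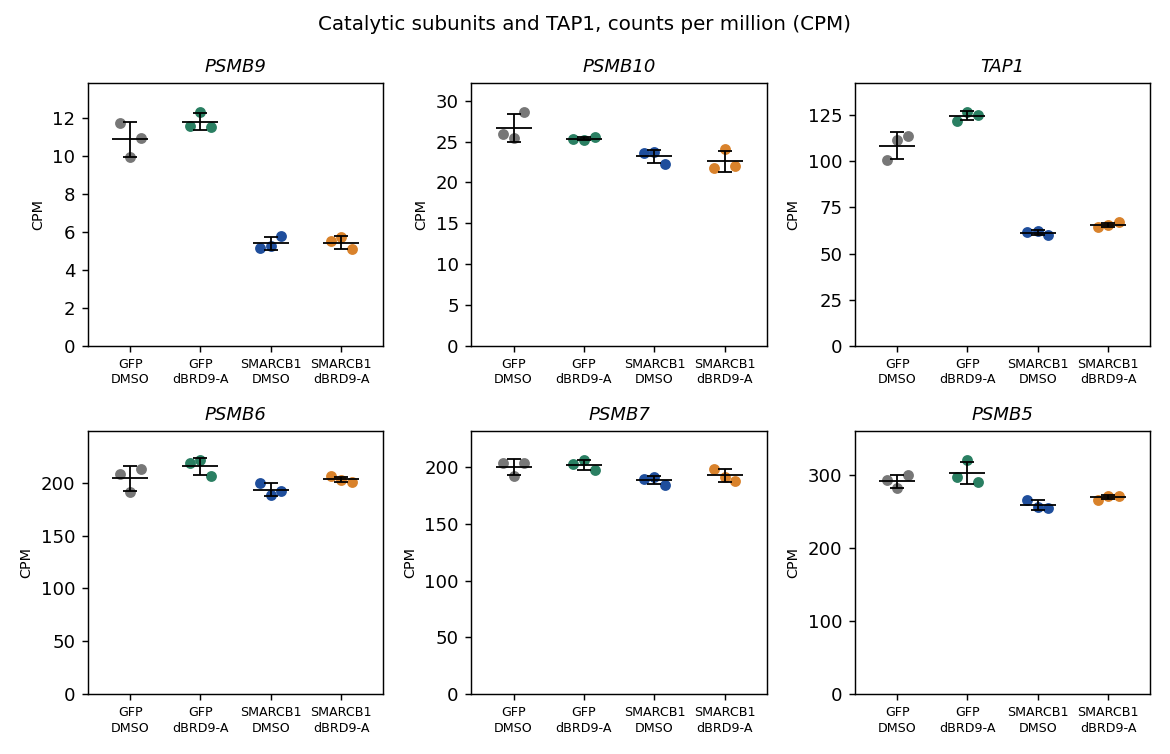
Levels in CPM (vertical axis, from 0) of the immunoproteasome subunits PSMB9 and PSMB10, of TAP1, and of the constitutive subunits PSMB6, PSMB7 and PSMB5, in the 4 groups; points are libraries, bars the mean and SD of 3. PSMB9 and TAP1 separate GFP from SMARCB1 libraries widely, at 10.9 against 5.39 CPM and 109 against 61.3 CPM in DMSO, while the other panels differ by small margins.

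TAP1, which is not a proteasome gene but is known to share a bidirectional promoter with PSMB9, fell with it. It was at 100, 112 and 114 CPM in GFP cells under DMSO and 61.5, 62.4 and 60.1 CPM in SMARCB1 cells under DMSO, and the log2 fold change was -0.82 (SE 0.04, adjusted p = 3.84e-12). With dBRD9-A the levels were 122, 127 and 125 CPM against 64.4, 65.5 and 66.8 CPM, and the log2 fold change was -0.93 (SE 0.04, adjusted p = 7.77e-13). The groups did not overlap in either comparison. By the GENCODE annotation PSMB9 overlaps TAP1 and PSMB8 on the opposite strand and PSMB8-AS1 on its own strand, where PSMB8-AS1 had 0 to 4 counts per library. The library kit keeps strand, but whether counting used it is not given in the sources used here, and reads that TAP1 could lend to PSMB9 cannot be told apart in these counts.

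In a list of 11 interferon pathway genes tied to immunoproteasome expression, 10 were called in DMSO, 7 higher and 3 lower, with a median log2 fold change of 0.29. Of all genes tested, 65% were called, 33.5% higher and 31.6% lower. NLRC5, the transactivator of MHC class I genes, went from 0.421 ± 0.0904 to 3.33 ± 0.211 CPM (log2 fold change 3.00, adjusted p = 1.82e-11). IRF9, a transcription factor of the interferon response, rose by 1.73 (adjusted p = 2.57e-09) and IFNGR1, a chain of the interferon gamma receptor, by 0.79 (adjusted p = 8.99e-11). JAK1, a kinase bound to interferon receptors, fell by 0.75 (adjusted p = 6.3e-14). With dBRD9-A 9 of the 11 were called, 6 higher and 3 lower, beside 63.3% of all genes tested (33% higher and 30.4% lower). PSMB9, PSMB10 and TAP1, itself a member of the list, fell.

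The alpha ring moved in both directions. In DMSO 5 of its 7 genes were called, 2 higher and 3 lower, beside 65% of all genes tested (33.5% higher and 31.6% lower). PSMA7 was at 269, 262 and 265 CPM in GFP cells under DMSO, 274, 277 and 279 CPM in GFP cells given dBRD9-A, 308, 304 and 296 CPM in SMARCB1 cells under DMSO and 306, 305 and 299 CPM in SMARCB1 cells given dBRD9-A. Every SMARCB1 library was above every GFP library. PSMA7 rose by 0.19 in DMSO (SE 0.03, adjusted p = 3.21e-06) and by 0.13 with dBRD9-A (SE 0.03, adjusted p = 0.000169), although on the spike-in scale the second value was -0.19. PSMA2 also rose in DMSO, by 0.10 (adjusted p = 0.0113, 0.0837 without SMARCB1 DMSO replicate 1). PSMA6, PSMA1 and PSMA4 fell in DMSO, with log2 fold changes of -0.23, -0.16 and -0.14, and all 3 were called lower again with dBRD9-A (-0.13, -0.12 and -0.16). PSMA5 (log2 fold change -0.07, adjusted p = 0.0636) and PSMA3 (0.02, adjusted p = 0.512) did not pass in DMSO. With dBRD9-A PSMA3, at 147, 156 and 150 CPM in GFP cells and 162, 161 and 160 CPM in SMARCB1 cells, was called higher by 0.09 (adjusted p = 0.0231). That call was lost without GFP DMSO replicate 3, GFP dBRD9-A replicate 1 or 3, or SMARCB1 dBRD9-A replicate 1 or 3 (adjusted p = 0.0522, 0.131, 0.073, 0.0703 and 0.0505), and the value was -0.24 on the spike-in scale.

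All 6 constitutive beta genes had negative log2 fold changes in both comparisons with TMM, from -0.17 (PSMB5) to -0.07 (PSMB1) in DMSO, although on the spike-in scale PSMB1, PSMB2, PSMB4, PSMB6 and PSMB7 were above 0 there (0.081 to 0.096) and PSMB5 was at -0.0018. Of these, 5 were called in DMSO and 3 with dBRD9-A (PSMB5, PSMB4 and PSMB2), beside 65% and 63.3% of all genes tested. Their summed level was 1548 ± 45.8 CPM in GFP cells and 1448 ± 26.2 CPM in SMARCB1 cells under DMSO (SD, n = 3), a difference of -6.43%. The smallest calls depended on single libraries. In DMSO the call of PSMB1 (log2 fold change -0.07, adjusted p = 0.0428) was lost without GFP DMSO replicate 1 or 3, GFP dBRD9-A replicate 3, SMARCB1 dBRD9-A replicate 1, or SMARCB1 DMSO replicate 2 or 3 (adjusted p = 0.0928, 0.197, 0.0511, 0.0543, 0.159 and 0.112). PSMB4 (-0.08, adjusted p = 0.0165) was lost without GFP DMSO replicate 1 or SMARCB1 DMSO replicate 3 (adjusted p = 0.0627 and 0.0815), and PSMB7 without GFP DMSO replicate 1 or 3 or SMARCB1 DMSO replicate 3 (adjusted p = 0.0871, 0.087 and 0.0908). With dBRD9-A the call of PSMB2 (-0.07) was lost without GFP dBRD9-A replicate 1 (adjusted p = 0.0657) and that of PSMB4 (-0.09) without GFP dBRD9-A replicate 2 (adjusted p = 0.0549).

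Of the 4 core assembly chaperones named by the rule, 3 fell (PSMG1, PSMG3 and PSMG4) in both comparisons with TMM scaling. Of the 3 base assembly chaperones named by it, 2 rose (PSMD9 and PSMD10) in both. The rule leaves out assembly factors with other symbols. In DMSO PAAF1 was called lower (23.0 ± 0.777 CPM in GFP cells, 17.3 ± 1.28 CPM in SMARCB1 cells) and AKIRIN2 higher (10.9 ± 0.783 and 14.3 ± 1.29 CPM). POMP was at 147 ± 3.51 and 146 ± 1.21 CPM. Of all genes tested, 31.6% were called lower and 33.5% higher in DMSO, and 30.4% lower and 33% higher with dBRD9-A. PSMG3, which pairs with PSMG4 to help build the alpha ring, was at 80.0, 80.5 and 85.6 CPM in GFP cells under DMSO, 76.6, 80.2 and 76.3 CPM in GFP cells given dBRD9-A, 57.5, 56.6 and 54.4 CPM in SMARCB1 cells under DMSO and 58.0, 59.9 and 58.0 CPM in SMARCB1 cells given dBRD9-A. The SMARCB1 libraries were all lower. PSMG3 fell by 0.55 in DMSO (SE 0.04, adjusted p = 2.17e-10) and by 0.40 with dBRD9-A (SE 0.04, adjusted p = 1.79e-08). Its antisense neighbour PSMG3-AS1 was far lower in level, at 5.65 ± 0.369 CPM in GFP cells under DMSO, and fell by 0.42 (adjusted p = 0.00494).

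PSMG4 was at 19.1, 19.4 and 21.3 CPM in GFP cells under DMSO, 18.6, 19.2 and 20.02 CPM in GFP cells given dBRD9-A, 16.9, 16.9 and 16.2 CPM in SMARCB1 cells under DMSO and 15.7, 16.1 and 16.6 CPM in SMARCB1 cells given dBRD9-A. It was lower in SMARCB1 libraries without overlap, by 0.26 in DMSO (SE 0.05, adjusted p = 0.00024) and 0.25 with dBRD9-A (SE 0.05, adjusted p = 0.000419). PSMG1, of the other chaperone pair, fell by 0.22 in DMSO (SE 0.03, adjusted p = 9.07e-06) and by 0.20 with dBRD9-A (SE 0.03, adjusted p = 2.18e-05). Its partner PSMG2 had log2 fold changes of 0.01 and 0.03 and was not called. The 4 core chaperones summed to 272 ± 11.6 CPM in GFP cells and 228 ± 3.69 CPM in SMARCB1 cells under DMSO, a difference of -16.1%.

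Of the 3 base chaperones, PSMD10 (gankyrin) was at 51.4, 51.9 and 54.8 CPM in GFP cells under DMSO, 50.5, 51.9 and 50.4 CPM in GFP cells given dBRD9-A, 64.9, 63.7 and 57.6 CPM in SMARCB1 cells under DMSO and 65.5, 60.1 and 65.4 CPM in SMARCB1 cells given dBRD9-A. The SMARCB1 libraries were all higher. PSMD10 rose by 0.23 in DMSO (SE 0.05, adjusted p = 0.000221) and by 0.32 with dBRD9-A (SE 0.05, adjusted p = 9.38e-06). PSMD9 was at 67.1, 64.4 and 68.1 CPM in GFP cells under DMSO, 64.6, 66.4 and 63.8 CPM in GFP cells given dBRD9-A, 78.8, 75.9 and 72.2 CPM in SMARCB1 cells under DMSO and 74.3, 79.3 and 73.8 CPM in SMARCB1 cells given dBRD9-A. It too was higher without overlap, by 0.18 in DMSO (SE 0.04, adjusted p = 0.000377) and by 0.22 with dBRD9-A (SE 0.04, adjusted p = 5.87e-05). On the spike-in scale the values with dBRD9-A were -0.0046 for PSMD10 and -0.10 for PSMD9, so these rises with dBRD9-A hold relative to the bulk of genes only. PSMD5 was not called (log2 fold changes -0.02 and 0.01). The 3 genes summed to 161 ± 2.24 CPM in GFP cells and 179 ± 6.71 CPM in SMARCB1 cells under DMSO.

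**Figure D3:**
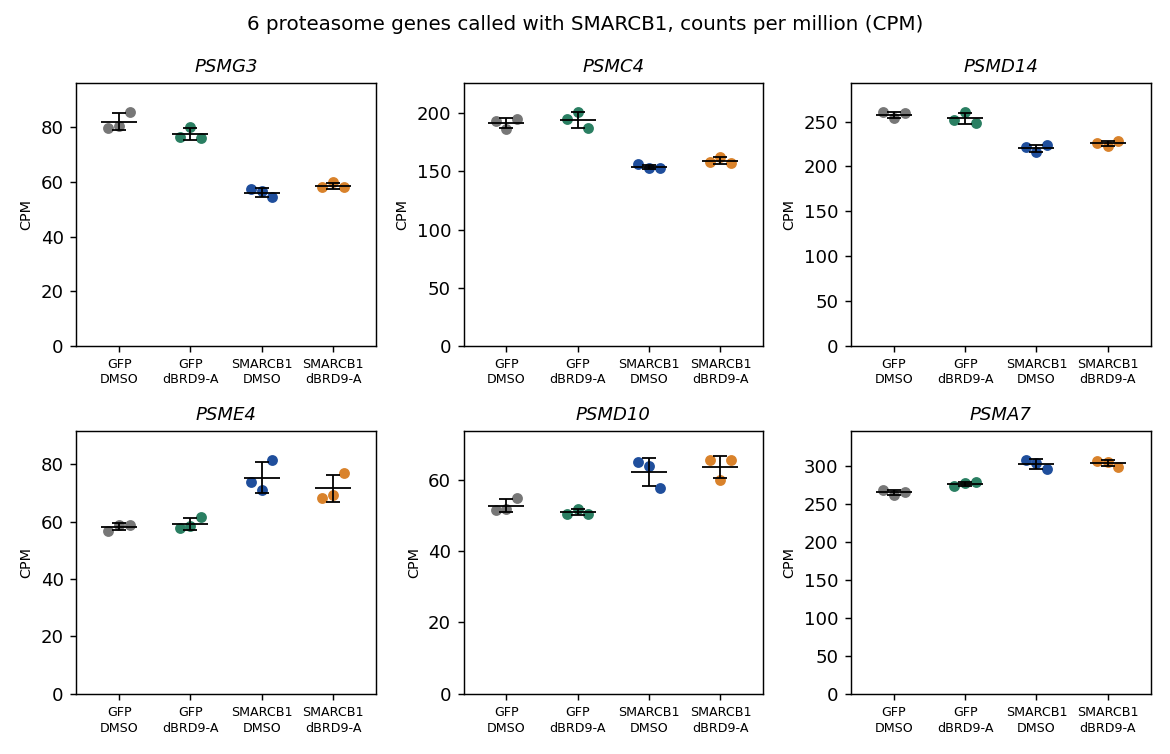
Levels in CPM (vertical axis, from 0) of PSMG3, PSMC4 and PSMD14, called lower, and PSME4, PSMD10 and PSMA7, called higher, in SMARCB1 cells; points are libraries of the 4 groups, bars the mean and SD of 3. In each panel the GFP and SMARCB1 libraries do not overlap, and PSMG3 shows the largest fall of the 6 as a ratio (82.0 to 56.1 CPM in DMSO), all with TMM scaling. With spike-in scaling PSME4, PSMD10 and PSMA7 stood at -0.056, -0.0046 and -0.19 on the log2 scale with dBRD9-A. PSMD14 stood at -0.057 in DMSO with spike-in scaling and was not called.

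In the regulatory particle single genes stood out from subunits that did not pass the test. Of the 6 base ATPases, 2 were called in DMSO, beside 65% of all genes tested. PSMC4 was at 193, 187 and 195 CPM in GFP cells under DMSO, 195, 201 and 187 CPM in GFP cells given dBRD9-A, 156, 153 and 153 CPM in SMARCB1 cells under DMSO and 158, 163 and 157 CPM in SMARCB1 cells given dBRD9-A. It was lower in SMARCB1 libraries without overlap, by 0.32 in DMSO (SE 0.03, adjusted p = 4.68e-08) and 0.29 with dBRD9-A (SE 0.03, adjusted p = 1.75e-07). Its fellow ATPases had log2 fold changes between -0.09 (PSMC1) and 0.02 (PSMC6) in DMSO. PSMC1 was called (adjusted p = 0.014), but not without SMARCB1 DMSO replicate 1 (adjusted p = 0.0572), and it can share reads with the pseudogene PSMC1P1, which was itself counted at 40.5 ± 1.52 CPM in GFP cells under DMSO. PSMC2, PSMC3, PSMC5 and PSMC6 had 95% intervals between -0.08 and 0.07 in DMSO. With dBRD9-A PSMC5 was called lower (log2 fold change -0.12, adjusted p = 0.012), but not without GFP dBRD9-A replicate 2 (adjusted p = 0.051).

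The 3 other base subunits named by the rule were close to their GFP levels in DMSO. PSMD1 (log2 fold change -0.03), a scaffold, and PSMD2 (-0.02), which binds ubiquitin shuttles, were not called. PSMD4, a ubiquitin receptor, fell by 0.09 (adjusted p = 0.0242), a call lost without 1 of GFP DMSO replicate 1, SMARCB1 DMSO replicate 2 or SMARCB1 DMSO replicate 3 (adjusted p = 0.166, 0.0818 and 0.0715). None of PSMD1, PSMD2 and PSMD4 was called with dBRD9-A. The base subunit ADRM1 has another symbol and fell outside the rule. It was called higher in DMSO, at 106 ± 2.59 CPM in GFP cells and 115 ± 1.76 CPM in SMARCB1 cells.

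Of the 8 lid genes named by the rule, 4 were called in DMSO, 1 higher and 3 lower, beside 65% of all genes tested. PSMD14, the deubiquitinase that strips ubiquitin chains from substrates, and PSMD7, the protein it pairs with, were both lower. PSMD14 was at 258 ± 3.38 CPM in GFP cells and 220 ± 3.99 CPM in SMARCB1 cells under DMSO, and fell by 0.23 (SE 0.03, adjusted p = 7.22e-07) and with dBRD9-A by 0.17 (SE 0.03, adjusted p = 2.68e-05). PSMD7 was at 102 ± 3.72 and 88.7 ± 1.38 CPM, and fell by 0.20 in DMSO (SE 0.03, adjusted p = 1.24e-05) and by 0.24 with dBRD9-A (SE 0.03, adjusted p = 2.49e-06). On the spike-in scale neither PSMD14 (-0.057) nor PSMD7 (-0.034) was called in DMSO. PSMD13 fell by 0.09 in DMSO (adjusted p = 0.00943; 0.0502 without GFP DMSO replicate 3 and 0.0504 without SMARCB1 DMSO replicate 3) and by 0.14 with dBRD9-A. PSMD8 went the other way. It was at 212, 209 and 217 CPM in GFP cells under DMSO, 217, 226 and 222 CPM in GFP cells given dBRD9-A, 236, 228 and 233 CPM in SMARCB1 cells under DMSO and 238, 240 and 227 CPM in SMARCB1 cells given dBRD9-A. It rose by 0.13 in DMSO (SE 0.03, adjusted p = 0.000785) and by 0.08 with dBRD9-A (SE 0.03, adjusted p = 0.0179). The second call was lost without GFP dBRD9-A replicate 1 or SMARCB1 dBRD9-A replicate 1 or 2 (adjusted p = 0.111, 0.0731 and 0.0804), and its value was -0.24 on the spike-in scale. PSMD3, PSMD6, PSMD11 and PSMD12 were not called in either comparison, with log2 fold changes between -0.06 and 0.04. The lid subunit SEM1, outside the rule, was called higher in DMSO. It was at 96.7 ± 2.10 CPM in GFP cells and 111 ± 0.719 CPM in SMARCB1 cells.

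Of the 5 genes for alternative activators and the inhibitor, 4 were called in DMSO, beside 65% of all genes tested. PSME4, the large nuclear activator linked to histone turnover, was at 56.9, 58.9 and 58.9 CPM in GFP cells under DMSO, 57.7, 58.4 and 61.6 CPM in GFP cells given dBRD9-A, 73.7, 71.1 and 81.5 CPM in SMARCB1 cells under DMSO and 68.4, 69.4 and 77.2 CPM in SMARCB1 cells given dBRD9-A. All SMARCB1 libraries were higher. PSME4 rose by 0.38 in DMSO (SE 0.05, adjusted p = 3.46e-06), the largest rise among the 44 genes in that comparison, and by 0.28 with dBRD9-A (SE 0.05, adjusted p = 0.00014). On the spike-in scale these values were 0.55 and -0.056.

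PSME1 and PSME2 form the interferon-inducible activator together. PSME2 was at 86.1, 79.8 and 86.0 CPM in GFP cells under DMSO, 82.5, 86.6 and 82.5 CPM in GFP cells given dBRD9-A, 69.9, 68.0 and 69.8 CPM in SMARCB1 cells under DMSO and 71.2, 68.5 and 71.8 CPM in SMARCB1 cells given dBRD9-A. It was lower without overlap, by 0.28 in DMSO (SE 0.03, adjusted p = 1.45e-06) and 0.25 with dBRD9-A (SE 0.03, adjusted p = 6.46e-06). PSME1 was at 58.5, 61.9 and 62.5 CPM in GFP cells under DMSO, 57.1, 57.8 and 55.9 CPM in GFP cells given dBRD9-A, 59.1, 58.8 and 56.3 CPM in SMARCB1 cells under DMSO and 55.2, 50.8 and 52.0 CPM in SMARCB1 cells given dBRD9-A. Its libraries overlapped in DMSO (log2 fold change -0.07, adjusted p = 0.103). With dBRD9-A it was lower by 0.11 (adjusted p = 0.0149, 0.0625 without SMARCB1 dBRD9-A replicate 2).

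PSME3, the nuclear activator, was at 109, 108 and 105 CPM in GFP cells under DMSO, 107, 105 and 111 CPM in GFP cells given dBRD9-A, 101, 99.9 and 102 CPM in SMARCB1 cells under DMSO and 106, 100 and 109 CPM in SMARCB1 cells given dBRD9-A. Its fall in DMSO was 0.08 (adjusted p = 0.0323), lost without either of GFP DMSO replicate 1 and 2 or of SMARCB1 DMSO replicate 1 and 2 (adjusted p = 0.122, 0.0681, 0.0589 and 0.101), and it was not called with dBRD9-A (log2 fold change -0.04). PSMF1, the inhibitor, was at 102 ± 3.48 CPM in GFP cells and 88.1 ± 1.54 CPM in SMARCB1 cells under DMSO, and fell by 0.21 (SE 0.03, adjusted p = 7.22e-06) and with dBRD9-A by 0.15 (SE 0.03, adjusted p = 0.000329).

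The comparison of SMARCB1 with GFP cells in the presence of dBRD9-A takes its means from other libraries than the comparison in DMSO, but both come from 1 fit that shares its estimates of spread, so their calls are not independent. There 25 of the 44 proteasome genes were called (56.8%), against 63.3% of all genes tested and 73% of those in the same range of CPM. Of the 25, 6 were higher (33% of all genes tested) and 19 lower (30.4% of all genes tested). In all, 22 genes were called in both comparisons, 17 lower and 5 higher in each, which is 78.6% of the first list and 88% of the second. The log2 fold changes of the 44 genes had a Pearson correlation of 0.965 between the comparisons (0.944 without PSMB9; 0.949 over all genes tested), a description over genes, which are not independent replicates. The sign was shared by 39 of the 44 (88.6%, against 86.7% of all genes tested). With spike-in scaling, which moved the median of all genes by -0.32 here, 41 were called lower (57.4% of all genes) and none higher.

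Degrading BRD9 in GFP cells, which lack SMARCB1, left the proteasome genes close to their DMSO levels. At the same threshold 2 of 44 genes were called (4.55%), against 15.9% of all genes tested and 21.2% of those in the same range of CPM. Both were higher (7.43% of all genes tested). PSMC5, a base ATPase, was at 89.1, 81.3 and 86.2 CPM in DMSO and 91.3, 95.4 and 92.9 CPM with dBRD9-A, and the log2 fold change was 0.12 (SE 0.04, adjusted p = 0.0314). PSMD3, a lid subunit, was at 254, 255 and 255 CPM in DMSO and 269, 267 and 270 CPM with dBRD9-A, and the log2 fold change was 0.08 (SE 0.03, adjusted p = 0.0496). In neither gene did the libraries overlap. Neither call held with every library left out in turn. That of PSMC5 was lost without GFP DMSO replicate 2 or 3 or GFP dBRD9-A replicate 2 or 3 (adjusted p = 0.139, 0.0646, 0.122 and 0.0775). That of PSMD3 was lost in 9 of the 12 cases (adjusted p = 0.0559 to 0.14) and held only without SMARCB1 dBRD9-A replicate 2 or 3 or SMARCB1 DMSO replicate 3. At an unadjusted p under 0.05 there were 6 proteasome genes, 13.6% of those tested, against 27.9% of all genes.

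The 95% intervals with TMM scaling rest on the spread between these libraries, which may be technical. They were taken for each gene alone, without adjustment over genes. In GFP cells the 95% interval of 42 of the 44 genes lay within 0.2 on the log2 scale of no change, which is 14.9% as a rise, and the outermost bounds were -0.18 (PSMB10) and 0.27 (PSMB9). The median absolute log2 fold change was 0.035, against 0.095 over all genes tested and 0.065 over those in the same range of CPM. The latter were not matched by level within that range. With spike-in scaling, which moved the median of all genes by 0.36, all 44 were called higher (70.4% of all genes were), with log2 fold changes from 0.26 to 0.48. Near-constancy was therefore relative to the bulk of genes and not to the spike-ins.

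**Figure D4:**
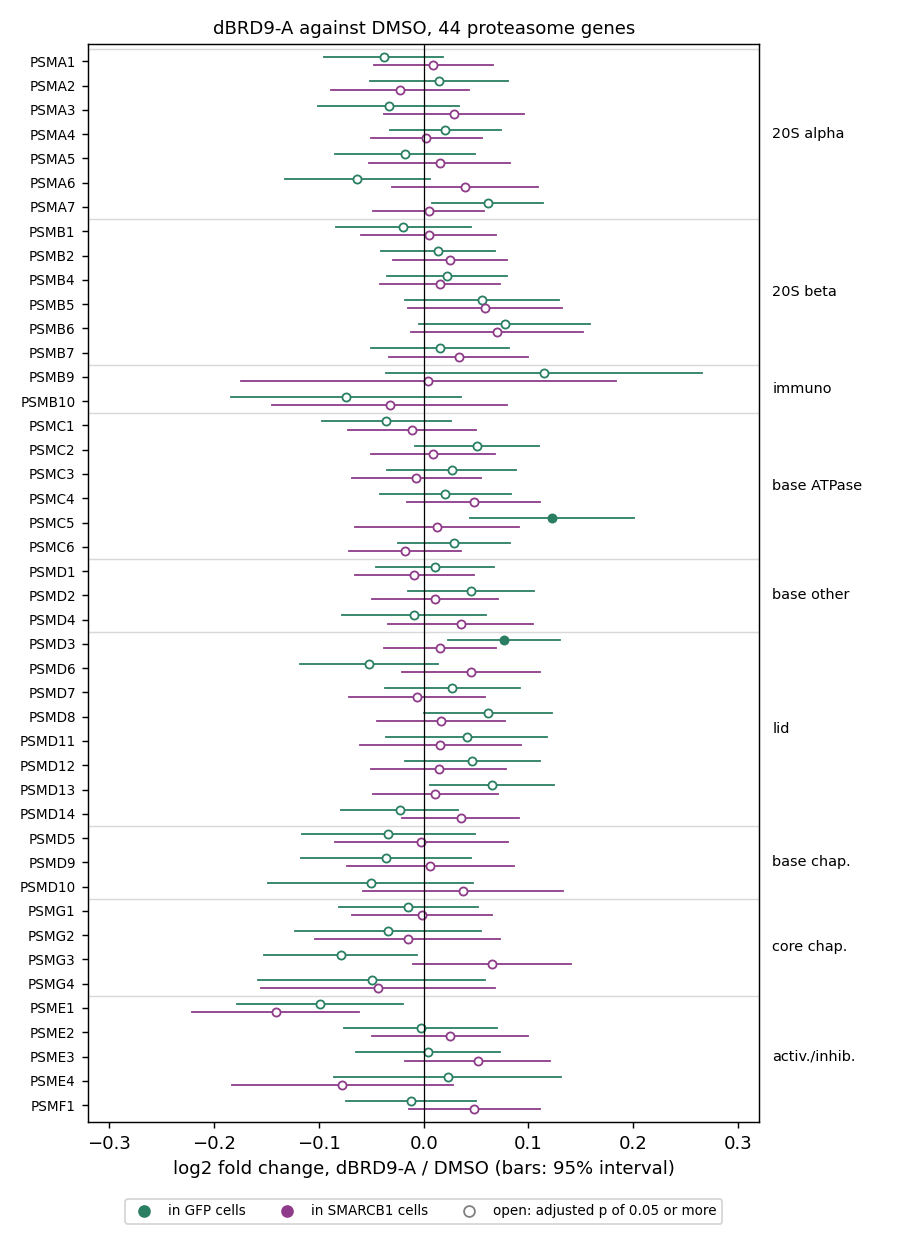
Log2 fold change of dBRD9-A against DMSO (horizontal axis, narrower than in the plot for SMARCB1) for the 44 tested proteasome genes (rows, grouped by role), in GFP cells (green) and SMARCB1 cells (purple); bars are 95% intervals and filled points have an adjusted p under 0.05. Only PSMC5 and PSMD3 in GFP cells are filled, at 0.12 and 0.08.

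For dBRD9-A in SMARCB1 cells, edgeR's quasi-likelihood test called 0 of the 44 proteasome genes, against 1.93% of all genes tested. At an unadjusted p under 0.05 there was 1 gene, PSME1 (12.7% of all genes tested had such a p). PSME1 stood at -0.14 on the log2 scale (SE 0.04, adjusted p = 0.0716), with no overlap between the libraries given above. DESeq2's Wald test called it lower (log2 fold change -0.15, adjusted p = 0.0411; 1.56% of all genes were called lower by that test), as did the edgeR test without SMARCB1 dBRD9-A replicate 1 (-0.18, adjusted p = 0.0298). PSME1 also had a negative value in GFP cells (-0.10, adjusted p = 0.0894). For 43 of the 44 genes the 95% interval lay within 0.2 on the log2 scale of no change. The SMARCB1 transcript itself was lower with dBRD9-A in these cells, at 1307 ± 27.0 CPM against 1875 ± 59.4 CPM in DMSO (log2 fold change -0.52, adjusted p = 4.95e-08), and its part in the values was not tested. Spike-in scaling moved the median of all genes by -0.14 and called 1 proteasome gene lower (5.3% of all genes). With TMM scaling and without SMARCB1 dBRD9-A replicate 2, edgeR's test called 2.64% of all genes tested.

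The difference between the dBRD9-A effects in SMARCB1 and GFP cells was tested directly as an interaction. By edgeR's quasi-likelihood test 0 of the 44 proteasome genes were called, against 3.8% of all genes tested, and DESeq2's Wald test also called 0 (3.96% of all genes). At an unadjusted p under 0.05 there were 3 genes (15.9% of all genes), and the lowest adjusted p was 0.139, for PSMG3 (log2 difference 0.14, SE 0.05). The 95% interval lay within 0.2 on the log2 scale of no difference for 38 genes. The outermost bounds were -0.34 (PSMB9) and 0.25 (PSMG3). With spike-in scaling the median of all genes was -0.49 and all 44 were called lower (71.1% of all genes were). With TMM scaling and without SMARCB1 dBRD9-A replicate 2, edgeR's test called 5.38% of all genes tested and again 0 proteasome genes.

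**Figure D5:**
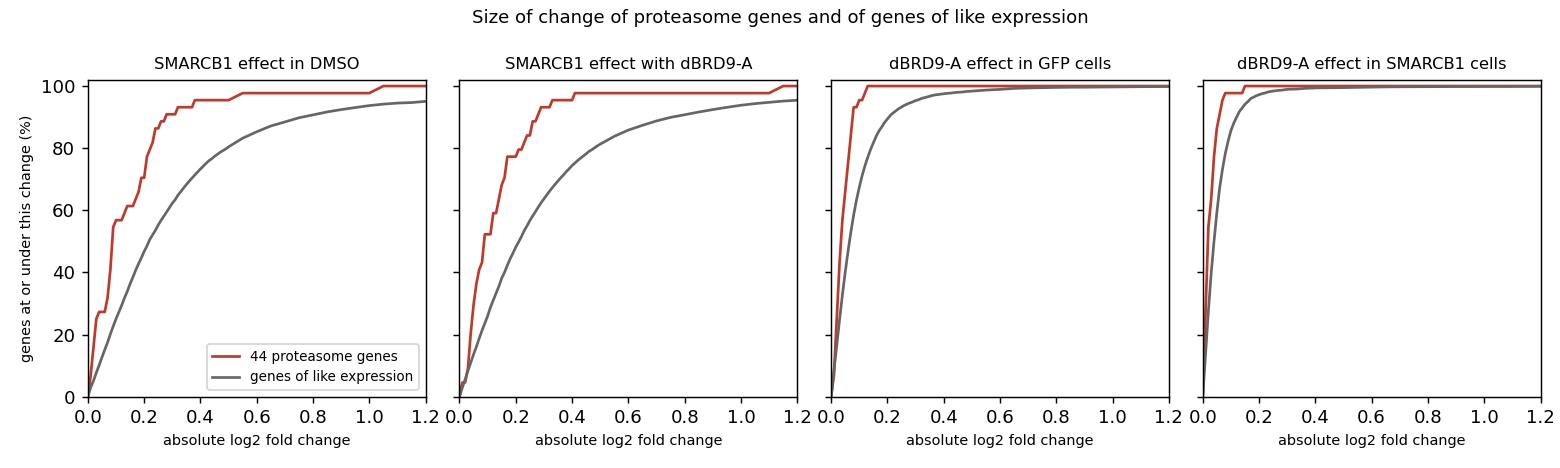
Share of genes (vertical axis, percent) whose absolute log2 fold change is at or under the value on the horizontal axis (shown up to 1.2), for the 44 tested proteasome genes (red) and for the 9154 tested genes in the same range of mean CPM (grey), in 4 comparisons. The grey genes were not matched to the red ones by level within that range. The red line lies above the grey over most of each panel: at 0.1 it stands at 56.8% against 25.0% for SMARCB1 in DMSO and at 95.5% against 67.4% for dBRD9-A in GFP cells.

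Other lists around the proteasome moved in mixed directions with SMARCB1 in DMSO. Of 5 subunits and assembly factors with other symbols, 4 were called, 3 higher and 1 lower. These counts stand beside 65% of all genes tested that were called in this comparison. Of 13 proteasome-associated ubiquitin enzymes and shuttles, 11 were called, 4 higher and 7 lower. All 6 ubiquitin genes and activating enzymes were called, 4 higher and 2 lower, with a median log2 fold change of 0.11. Of 8 NRF1 pathway genes, 4 were called, 1 higher and 3 lower, and the largest was MAFK, a small MAF partner of NRF1, which was at 39.0 ± 0.993 CPM in GFP cells and 12.7 ± 0.255 CPM in SMARCB1 cells (log2 fold change -1.62, adjusted p = 5.95e-13). Of 10 subunits of the COP9 signalosome, a relative of the lid, 6 were called, 2 higher and 4 lower, led by COPS7A (log2 fold change -0.55). With dBRD9-A in GFP cells the counts called were 0 of 5, 4 of 13, 0 of 6, 2 of 8 and 1 of 10 in the same order, beside 15.9% of all genes tested, and 4 of 11 interferon genes were called, among them TAP1 (log2 fold change 0.20, adjusted p = 0.00138). MAFK fell there by 0.29 (adjusted p = 0.00395).

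Many of these genes share ground with neighbours in the annotation: 28 of the 47 proteasome genes overlap another gene in GENCODE, 13 on the same strand and 24 on the opposite strand. Among those named here, PSMC5 overlaps FTSJ3, PSME2 overlaps RNF31, PSMD14 overlaps non-coding genes and PSMG3 overlaps PSMG3-AS1 on the opposite strand. How reads in shared stretches were assigned is not given in the sources used here.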

How the data were processed

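G401 poly(A) RNA was sequenced in 12 libraries, 4 groups of 3, taken from the labels. Per the submitters' processing notes, tools included STAR, RSEM 1.3.1 and DESeq2, with GRCh37 (hg19). The annotation and the use of strand are not given in the sources used here. The authors deposited RSEM expected counts per gene in 3 tables. Libraries present in more than 1 table had identical values, and 0 value columns could not be tied to a sample. Here, expected counts were rounded, the 40 ERCC spike-in identifiers (0.963% to 1.30% of a library) were left out, and 15750 genes passing filterByExpr (minimum count 10) were tested in R 4.3.3 with edgeR 4.0.16: TMM scaling, quasi-likelihood fits of the 4 groups together over all 12 libraries, Benjamini-Hochberg adjustment and a threshold of 0.05. The procedure was tested on simulated data with changes set in few genes, which cannot test the choice between TMM and spike-in scaling.

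Libraries held 34.97 to 58.54 megacounts in genes. No pair of replicates was alike to within counting noise (chi-square over its degrees of freedom 3.02 to 26.2), so each was kept as its own sample. The values were 7.70 to 26.2 between SMARCB1 dBRD9-A libraries and 3.02 to 3.60 between GFP dBRD9-A libraries. The floor of 3 counts reflects counting error alone, as PCR copies were not told apart.

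Symbols were matched by unversioned identifier (51996 of 57820). Gene types, overlaps and median transcript lengths came from GENCODE release 29 on GRCh38, whose build differs from the authors', so no coordinates of theirs are given. Promoters came from RefSeq (GRCh38.p14) and were searched on both strands.

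The proteasome genes and the other lists were chosen with earlier results of these data known. Values for every library are given for the called genes with the largest changes per comparison (up to 5 in each direction), the immunoproteasome subunits and their constitutive partners, PSME1 to PSME4 and the genes that failed the filter. Genes of the other lists are named where called and changed by 0.5 or more on the log2 scale, at most 4 per list. ADRM1, AKIRIN2, PAAF1, POMP, SEM1, JAK1, PSMG3-AS1, PSMC1P1 and the values of TAP1 and MAFK for dBRD9-A in GFP cells were chosen after their values were seen. Some examined genes are not reported here. Alternatives tried were DESeq2 size factors, DESeq2 1.42.0's Wald test, spike-in scaling, no filter on low counts, only the groups compared, a replicate block, a fold limit and leaving out each library in turn.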

Additional observations from a re-analysis of the deposited data

How the results depend on the processing

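The count of proteasome genes called for SMARCB1 in DMSO (28) was 23 to 29 with 1 library left out, 27 with the replicate block, 19 with spike-in scaling (16 higher and 3 lower) and 2 with a fold limit of 0.5 on the log2 scale. For SMARCB1 with dBRD9-A (25) it was 23 to 27 with 1 library left out, 41 with spike-in scaling and 1 with the fold limit. For dBRD9-A in GFP cells (2) it was 0 to 2 with 1 library left out, 44 with spike-in scaling, 1 without the filter on low counts, 0 with the replicate block and 0 with the fold limit. For dBRD9-A in SMARCB1 cells (0) it was 0 to 1 with 1 library left out, and 1 each with DESeq2's Wald test, spike-in scaling and no filter on low counts. The interaction (0) stayed at 0 with each library left out and was 44 with spike-in scaling. The cause of these shifts was not tested. Of the 28 and 25 calls, 20 and 18 were kept whichever library was left out, and none of the 2 in GFP cells was. With spike-in scaling the sign turned for 20 of the 44 genes for SMARCB1 in DMSO, 11 for SMARCB1 with dBRD9-A, 20 for dBRD9-A in GFP cells, 31 for dBRD9-A in SMARCB1 cells and 24 for the interaction. Among called genes it turned, for SMARCB1 in DMSO to 0.0058 (PSMA1), 0.029 (PSMA4), 0.096 (PSMB1), 0.085 (PSMB2), 0.088 (PSMB4), 0.081 (PSMB7), 0.080 (PSMC1), 0.079 (PSMD13), 0.080 (PSMD4) and 0.085 (PSME3), and for SMARCB1 with dBRD9-A to -0.24 (PSMA3), -0.19 (PSMA7), -0.0046 (PSMD10), -0.24 (PSMD8), -0.10 (PSMD9) and -0.056 (PSME4). The labels do not say how spike-ins were dosed. Same-numbered libraries did not deviate together (18 pairs, correlations -0.0559 to 0.0611; 3 of 12 libraries correlated best with their own number). The numbers in their titles run in sequence across the 4 groups, and the labels do not say whether they were handled together. Whether the replicate block is a paired design is therefore not known. Depth limited PSMB8, PSMA8 and PSMB11, which were not tested.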
